A study of Mus musculus with 9 samples.

Results

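The genes described here are 49 mouse genes that act in mitosis: the mitotic kinases and cyclins, the spindle checkpoint, the kinetochore, the spindle motors, the proteins of cytokinesis and the condensins. They were chosen by name and known role, with earlier results of these data known, out of 54347 genes listed in the deposited table. All 49 were among the 15532 genes that passed the filter on low counts. RNA had been sequenced from 6 tumors of INS-p25OE mice, 3 functional (M1, M2 and M3) and 3 non-functional (M4, M5 and M6), and from 3 samples of normal mouse islets (NI1, NI2 and NI3). INS-p25OE mice are bi-transgenic. They carry tetOp-p25GFP, a doxycycline-inducible p25 fused to GFP, and Ins2-rtTA, which places the activator under the insulin promoter, so the transgene is limited to cells that use that promoter. The tumor mice received doxycycline in their drinking water from weaning at 3 to 4 weeks of age. The islets are labelled C57BL/6. M2 is labelled female and the other 8 libraries male, and the labels give no age at collection. A tumor is functional here where its title carries the extra word that sets M1 to M3 apart, which the study's figures name as the functional tumors.

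Cells enter mitosis when Cdk1 binds cyclin B and is freed of its inhibitory phosphates by the Cdc25 phosphatases. Polo and Aurora kinases then build the spindle, kinetochores attach chromosomes to it, and the spindle checkpoint holds back the anaphase-promoting complex (APC/C) until every chromosome is attached. Most of these genes are transcribed mainly in G2 and M phase, under the MuvB complex with B-Myb (Mybl2) and Foxm1, so in bulk RNA their level is commonly read as a mark of dividing cells. Adult beta cells divide rarely. A shared promoter element, the cell cycle genes homology region (CHR), is known from this family, often beside CCAAT boxes that bind NF-Y.

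The promoter windows are shown first because many of these genes share short runs of letters there. RefSeq promoter windows of GRCm38.p6, from 250 bases before to 50 bases after the annotated start, were matched by symbol to 39 of the 49 genes. The other 10 are Ccna2, Cdc25c, Aurkb, Incenp, Zwilch, Spc24, Tpx2, Kif20a, Smc4 and Foxm1. The CHR was searched as TTTGAA or TTCGAA on both strands. One example is given for each of 7 roles, read 5′ to 3′ on the gene's strand, with the CHR letters in capitals.
Ccnb2: agcggcgcggtaTTTGAAtcgcggaccggg
Bub1: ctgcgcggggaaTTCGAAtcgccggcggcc
Cenpf: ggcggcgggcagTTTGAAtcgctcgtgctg
Cdc20: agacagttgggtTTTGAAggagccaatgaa
Hmmr: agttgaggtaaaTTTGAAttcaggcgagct
Kif23: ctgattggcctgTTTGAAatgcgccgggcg
Ncapg: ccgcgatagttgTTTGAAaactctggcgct
These stretches lie at chr9:70421533-70421562 (Ccnb2), chr2:127831828-127831857 (Bub1), chr1:189688067-189688096 (Cenpf), chr4:118437344-118437373 (Cdc20), chr11:40733412-40733441 (Hmmr) and chr9:61946780-61946809 (Kif23), all on the minus strand, and at chr5:45669883-45669912 (Ncapg) on the plus strand. The CHR letters begin 2 bases after the start in Cenpf and Kif23, 4 after it in Ccnb2 and 14 after it in Bub1. In Cdc20 they begin 18 bases before the start, and a CCAAT box follows.

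Top2a, the topoisomerase that untangles chromosomes, and Cdk1 carry several of these elements. Their 250 bases before the start are given on the minus strand of chr11:99024190-99024439 (Top2a) and chr10:69352913-69353162 (Cdk1), with CHR letters and CCAAT letters of either strand in capitals.
Top2a: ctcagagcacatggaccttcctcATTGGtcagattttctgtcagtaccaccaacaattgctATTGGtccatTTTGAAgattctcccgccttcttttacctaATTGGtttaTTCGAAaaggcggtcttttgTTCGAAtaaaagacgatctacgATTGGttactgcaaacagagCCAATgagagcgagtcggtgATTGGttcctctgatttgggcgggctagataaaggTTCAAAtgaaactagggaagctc
Cdk1: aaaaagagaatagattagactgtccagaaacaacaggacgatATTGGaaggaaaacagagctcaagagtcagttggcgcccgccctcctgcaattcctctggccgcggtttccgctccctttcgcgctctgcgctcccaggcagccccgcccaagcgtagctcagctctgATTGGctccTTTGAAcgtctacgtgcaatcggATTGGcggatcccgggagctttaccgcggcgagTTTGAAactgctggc
The Top2a stretch holds 4 CHR and 6 CCAAT matches, and the Cdk1 stretch 2 CHR and 3 CCAAT matches.

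CHR letters were present in the window of 30 of the 39 genes (76.9%), against 21.7% of the 27025 genes in the promoter table. Within 50 bases of the start they were present in 28 of 39 (71.8%), against 6.12% of all genes. CCAAT, or ATTGG on the other strand, was present in 29 of 39 (74.4%) against 41.1%, and GCCAAT, which overlaps every CCAAT it contains, in 20 of 39 (51.3%) against 16.7%. Both CHR and CCAAT were present in 27 windows and neither in 7.

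For comparison, 18 genes of S phase (DNA replication) with a promoter window were searched for the same letters. CHR letters were present in 4 of the 18 (22.2%) and CCAAT in 13 (72.2%). The E2F letters TTTCGCGC, TTTCCCGC or TTTGGCGC were present in 9 of the 18, but in 2 of the 39 mitosis genes (5.13%) and in 2.12% of all genes. The CHR letters of the mitosis genes were gathered at the start, with 13 genes (33.3%) having a match in the first 25 bases after it, where 1.68% of all genes had one. A match of letters is a description of the window and not a binding site.

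**Figure D1:**
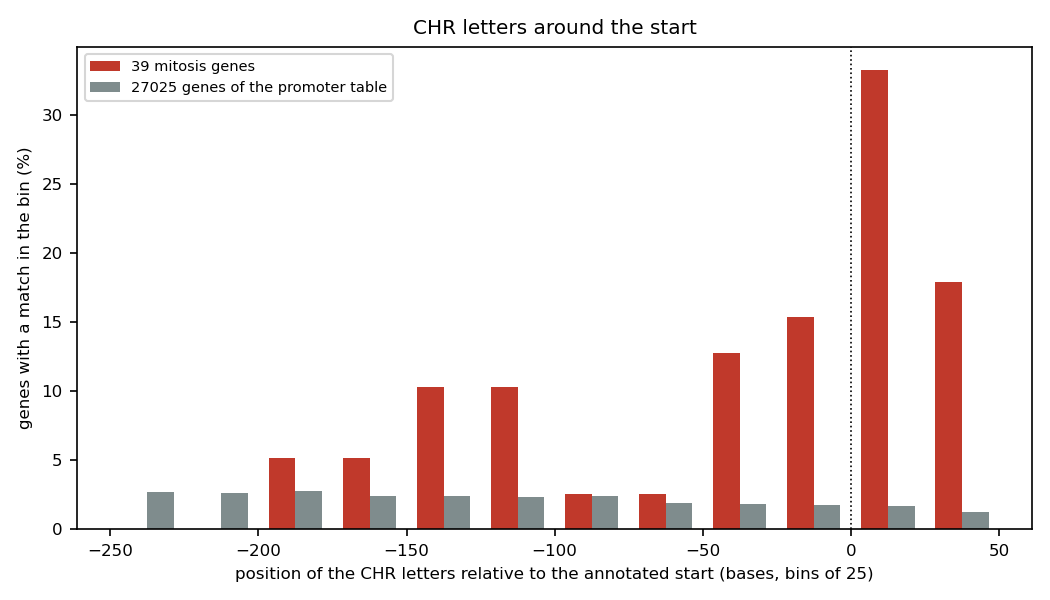
Share of genes (vertical axis, %) with CHR letters on either strand in each 25-base bin around the annotated start (horizontal axis, bases, dotted line at the start), for the 39 mitosis genes (red) and the 27025 genes of the promoter table (grey). The red bars are highest in the bin just after the start (33.3% against 1.68%), and no red bar stands in the bins farthest upstream.

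Between 36468280 and 63637175 reads per library had been counted on genes, and the detection limit used here, 3 counts, corresponded to 0.0425 to 0.119 CPM (counts scaled to library size by edgeR's TMM method). All 49 genes were above that limit in all 9 libraries. The lowest count was 10, for Cdc25c in NI3. Cdk5r1, the gene from which p25 derives, stood at 149 to 401 CPM in the 6 tumors, at 18.4 and 12.5 CPM in NI2 and NI3, but at 280 CPM in the library labelled NI1. That library was also closer to tumor M6 than any other 2 of the 9 libraries were to each other over all tested genes (distance 39.6 on log2(CPM + 1), next 60.1 for NI2 and NI3). The 2 differed by more than sampling noise, with a median chi-square of 3.95 per gene, and Fos was 156 CPM in the library labelled NI1 and 1.41 CPM in M6. Counts over the 49 genes and over each role are therefore given with and without it, and a log2 fold change against islets refers to the 8 libraries without it wherever all 9 are not named. Xist was 53.8 CPM in M1 and 28.1 CPM in M4, both labelled male, and at most 0.654 CPM in the other libraries labelled male. In M4 32.1% of counts were mitochondrial, against 1.76% to 8.41% in the other 8 libraries.

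The mitosis genes were at a higher level in the tumors than in NI2 and NI3 for nearly every member, and the library labelled NI1 stood between the tumors and the other islets. Over the 49 genes, the median ratio of the mean tumor level to the mean of NI2 and NI3 was 5.36. All 6 tumors were above NI2 and NI3 for 45 of the 49 genes, where 16.6% of all tested genes were, and above all 3 islet libraries for 32, where 4.50% of all tested genes were. The exceptions in the first count were Bub3, Spc25, Pttg1 and Mybl2. In whole tissue, a larger share of dividing cells and more RNA per dividing cell cannot be told apart.

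With all 9 libraries as labelled, none of the 49 genes reached an adjusted p under 0.05 by edgeR (quasi-likelihood test, Benjamini-Hochberg adjustment over 15532 genes). The background was 0 of all tested genes called higher and 0.258% called lower. The median log2 fold change of the 49 genes was 1.73, against 0.03 over all tested genes, and their smallest adjusted p was 0.128 (Smc2). At an unadjusted p under 0.05, 47 of the 49 were higher and 0 lower, where 10.7% of all tested genes were higher and 9.14% lower. DESeq2 called 42 of the 49 higher, where it called 4.92% of all tested genes, and limma-trend called 0.

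Without the library labelled NI1, 40 of the 49 genes were higher in the tumors and 0 lower by the same edgeR test, where 5.34% of all tested genes were called higher and 3.17% lower. The median log2 fold change was 2.42, against 0.05 over all tested genes. The 40 called genes ranged from 1.81 (Incenp) to 3.50 (Cdc25c), and their smallest adjusted p by edgeR was 0.00955 (Spc24). The 9 others were Cdc25b, Plk1, Bub3, Spc25, Pttg1, Kif2c, Kif20a, Mki67 and Mybl2, of which 7 had a log2 fold change above 0. With 1 more tumor left out, the count was 21 without M1, 31 without M2, 24 without M3, 27 without M4 and 24 without M5. Leaving out NI2 or NI3 too left 1 islet library, whose spread was then taken to be that of the tumors. The count was 10 without NI2 and 0 without NI3, with median log2 fold changes of 3.35 and 1.86. With both the library labelled NI1 and M6 left out, 42 genes were called, the 40 included. The share over all tested genes is not given for the fits that leave out a library besides the one labelled NI1. Scaled to library totals only, 82.1% of all called genes were higher, against 62.8% with TMM.

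**Figure D2:**
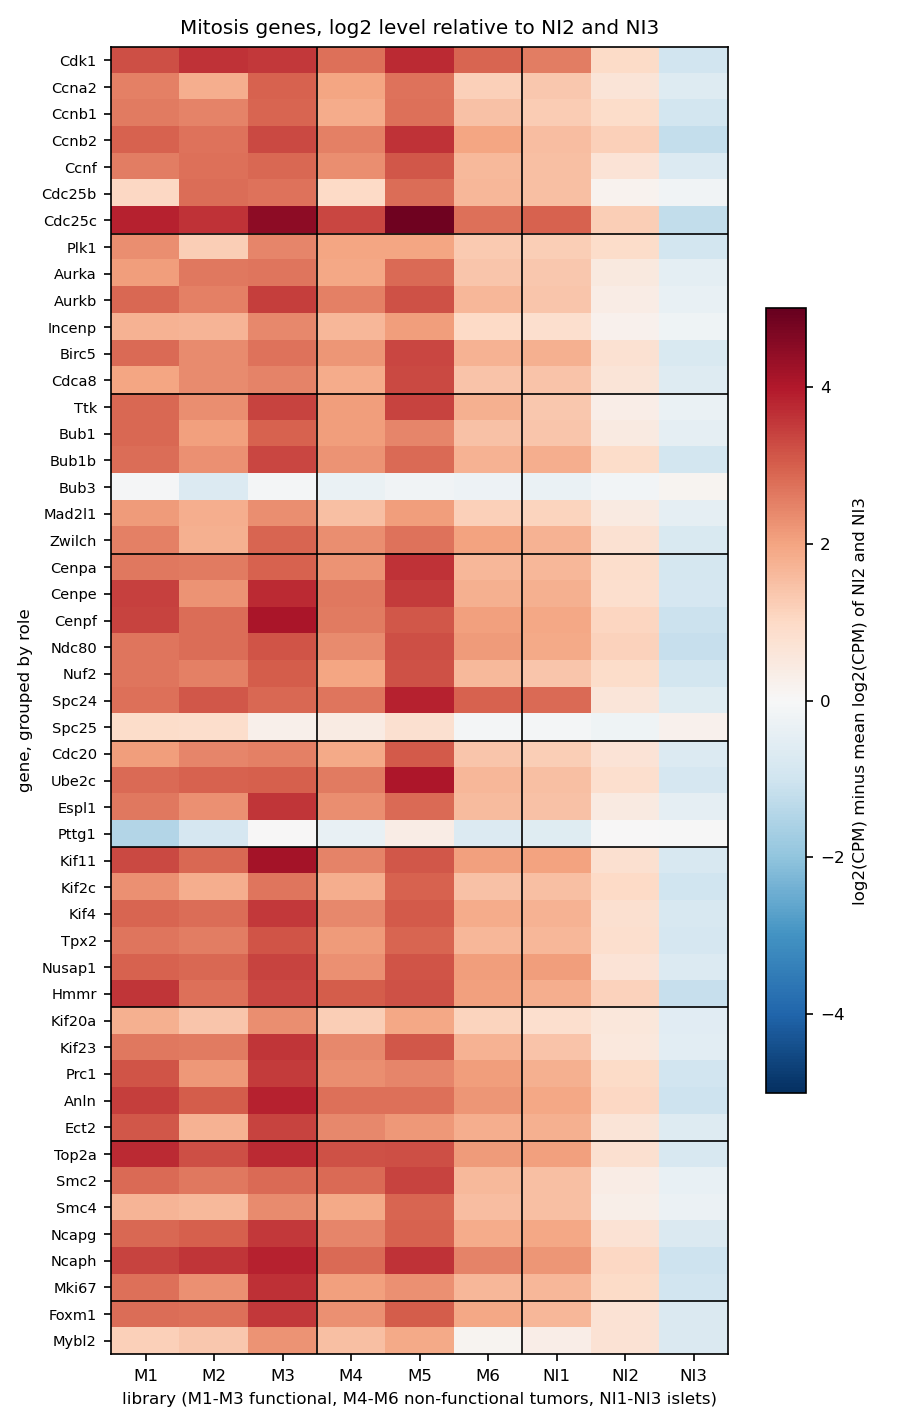
Level of the 49 mitosis genes (rows, grouped by role) in the 9 libraries (columns), as log2(CPM) minus the mean log2(CPM) of NI2 and NI3, red above and blue below 0. The tumors and the library labelled NI1 are red for nearly every gene, palest in M6 and NI1 (medians 1.67 and 1.51), while Bub3, Spc25 and Pttg1 stand out as paler or blue rows.

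Of Cdk1 and its cyclins and phosphatases, 6 of 7 genes were called higher without the library labelled NI1 and 0 over all 9 libraries, where their log2 fold changes ran from 1.51 (Cdc25b) to 2.18 (Cdc25c) with adjusted p of 0.148 to 0.193 by edgeR. Cdk1 (ENSMUSG00000019942, chr10:69335146-69352938 of GRCm38, minus strand), the kinase that drives mitotic entry, was 59.9, 77.4 and 74.5 CPM in M1, M2 and M3, against 42.6, 84.4 and 47.5 CPM in M4, M5 and M6. The library labelled NI1 had 37.4 CPM, and NI2 and NI3 had 12.5 and 3.27 CPM. Every tumor was above every islet library, and the 2 tumor groups overlapped. The log2 fold change of Cdk1 over all 9 libraries was 1.86 (standard error, SE, 0.61, adjusted p = 0.168 by edgeR) and 3.03 (SE 0.54, adjusted p = 0.0140) without the library labelled NI1.

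Ccnb1, cyclin B1, the partner of Cdk1, was 39.7, 36.6 and 49.5 CPM in M1, M2 and M3, 23.8, 44.2 and 18.0 CPM in M4, M5 and M6, and 15.9, 12.5 and 3.47 CPM in NI1, NI2 and NI3. The islets stayed below the lowest tumor, M6, by a small margin, and without the library labelled NI1 the log2 fold change was 2.15 (adjusted p = 0.0476 by edgeR). Ccnb2, cyclin B2, had the larger log2 fold change, 2.50 (adjusted p = 0.0499 by edgeR), from 15.5 to 48.1 CPM in the tumors against 8.98 and 1.71 CPM in NI2 and NI3. Its call stood at the threshold and was lost with RLE scaling.

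Ccnf, a cyclin that serves as a substrate receptor of an SCF ubiquitin ligase, ranged from 10.6 to 29.9 CPM in the tumors, against 9.84, 5.56 and 2.13 CPM in NI1, NI2 and NI3. Its log2 fold change without the library labelled NI1 was 2.45 (adjusted p = 0.0228 by edgeR). Cdc25c, a phosphatase that activates Cdk1, was the lowest of the 49 per kilobase of exon in tumors (1.89 CPM per kilobase) and had the highest log2 fold change of the 49 without the library labelled NI1, 3.50 with a standard error of 0.85, against 2.18 over all 9. Cdc25b, its relative, split the tumors. It was 25.6 CPM in M1, 24.8 CPM in M4 and 39.1 CPM in M6 but 82.3 to 86.7 CPM in M2, M3 and M5, and its log2 fold change of 2.19 did not pass the test (adjusted p = 0.0572 by edgeR). Ccna2, cyclin A2, was called at a log2 fold change of 2.17 (adjusted p = 0.0416 by edgeR).

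Of the Polo and Aurora kinases and the chromosomal passenger complex, which corrects wrong attachments, 5 of 6 genes were called without the library labelled NI1. None was over all 9 libraries, with log2 fold changes of 1.28 (Plk1) to 2.15 (Aurkb) and adjusted p of 0.133 to 0.191 by edgeR. Aurkb, the kinase of that complex, was 21.3, 17.1 and 32.2 CPM in M1, M2 and M3, 16.7, 26.5 and 9.27 CPM in M4, M5 and M6, and 7.73, 3.85 and 2.26 CPM in NI1, NI2 and NI3. The tumors did not overlap the islets, and M6 was nearest to them. The log2 fold change was 2.15 over all 9 libraries (adjusted p = 0.133 by edgeR) and 2.75 without the library labelled NI1 (adjusted p = 0.0163). Incenp, its scaffold, had the smallest log2 fold change of the called genes, 1.81 (SE 0.37, adjusted p = 0.0221 by edgeR), with 10.3 to 21.9 CPM in islets and 23.9 to 64.8 CPM in tumors.

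The other 2 members of the complex, Birc5 (survivin) and Cdca8 (borealin), were called at log2 fold changes of 2.42 and 2.22, and Aurka, the spindle pole kinase, at 2.26. Plk1, the Polo kinase, was 21.1, 9.99 and 23.1 CPM in M1, M2 and M3, 16.9, 16.8 and 10.4 CPM in M4, M5 and M6, and 9.86, 8.08 and 2.23 CPM in the islets. M2 and M6 lay close to the library labelled NI1, and the log2 fold change of 1.67 did not pass the test (adjusted p = 0.0914 by edgeR).

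In the spindle checkpoint 5 of 6 genes were called without the library labelled NI1 and 0 over all 9. Those 5 had log2 fold changes of 1.38 (Mad2l1) to 2.15 (Ttk) over all 9, with adjusted p of 0.139 to 0.169 by edgeR. Ttk, the Mps1 kinase that starts checkpoint signalling, ranged from 7.11 CPM (M6) to 21.9 CPM (M5) in the tumors and was 5.25, 2.64 and 1.64 CPM in NI1, NI2 and NI3. The groups did not overlap, and without the library labelled NI1 its log2 fold change was 2.72 (adjusted p = 0.0234 by edgeR). Mad2l1, whose protein Mad2 binds Cdc20, was 24.3 to 53.3 CPM in tumors and 14.6 and 7.91 CPM in NI2 and NI3, a log2 fold change of 1.83 (adjusted p = 0.0223 by edgeR). Bub1, Bub1b and Zwilch were called at 2.33, 2.37 and 2.24.

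Bub3, the partner of Bub1 and BubR1 that reads phosphorylated kinetochores, was the exception in the checkpoint. It was 74.3, 48.0 and 71.0 CPM in M1, M2 and M3, 61.7, 68.7 and 64.0 CPM in M4, M5 and M6, and 60.7, 69.1 and 85.6 CPM in NI1, NI2 and NI3. Tumors and islets overlapped, and NI3, lowest for most of the other genes, was the highest of all 9 libraries. Over all 9 libraries the log2 fold change of Bub3 was −0.15 (SE 0.18, adjusted p = 0.665 by edgeR) and −0.26 (SE 0.20, adjusted p = 0.442) without the library labelled NI1. Scaled to library totals only, those values were 0.09 and 0.12, while the median of all tested genes moved to 0.25 and 0.41.

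Among the centromere and kinetochore genes 6 of 7 were called without the library labelled NI1 and 0 over all 9, where the same 6 stood at 1.46 (Spc24) to 2.10 (Cenpe) with adjusted p of 0.152 to 0.244 by edgeR. Cenpe, the kinesin that carries chromosomes to the spindle equator, ranged from 16.6 CPM (M6) to 63.4 CPM (M3) in the tumors against 16.5, 8.64 and 2.70 CPM in NI1, NI2 and NI3. M6 and the library labelled NI1 were nearly equal, and the log2 fold change without the latter was 2.81 (adjusted p = 0.0368 by edgeR). Nuf2, of the Ndc80 complex that grips microtubules, was 11.0 to 32.0 CPM in tumors and 1.88 to 9.17 CPM in islets, with a log2 fold change of 2.33 (adjusted p = 0.0441 by edgeR). Cenpa, the centromeric histone, Cenpf, and Ndc80 itself were called at 2.49, 2.78 and 2.35.

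The 2 remaining subunits of the Ndc80 complex behaved unlike each other. Spc24 was 31.9, 40.2 and 34.3 CPM in M1, M2 and M3, 30.4, 68.8 and 36.3 CPM in M4, M5 and M6 and 33.7 CPM in the library labelled NI1, but 7.25 and 3.07 CPM in NI2 and NI3. The library labelled NI1 stood inside the range of the tumors for this gene, and its removal took the log2 fold change from 1.46 (adjusted p = 0.244 by edgeR) to 2.97 (adjusted p = 0.00955). Spc25 was 453, 446 and 289 CPM in M1, M2 and M3, 323, 427 and 228 CPM in M4, M5 and M6, and 228, 206 and 284 CPM in NI1, NI2 and NI3. It was the highest of the 49 genes per kilobase of exon, at 113 CPM per kilobase in the tumors and 76.8 in NI2 and NI3. Over all 9 libraries its log2 fold change came to 0.59 (SE 0.26, adjusted p = 0.247 by edgeR) and 0.56 (SE 0.32, adjusted p = 0.297) without the library labelled NI1. Spc25 (chr2:69193895-69206194, minus strand) lies 4878 bases from G6pc2, a gene of beta cells that reads the other way. G6pc2 stood at 1862 and 3809 CPM in NI2 and NI3, 805 CPM in the library labelled NI1 and 462 to 1395 CPM in the tumors. Its log2 fold change without the library labelled NI1 was −1.78 (adjusted p = 0.0388 by edgeR). Whether reads of one gene entered the count of the other was not tested.

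Of the 4 genes of anaphase onset 3 were called without the library labelled NI1. Over all 9, 0 were, and those 3 had log2 fold changes of 1.70 (Cdc20) to 2.22 (Ube2c), with adjusted p of 0.148 to 0.152 by edgeR. Ube2c, the E2 enzyme of the APC/C, was 36.6, 39.8 and 40.7 CPM in M1, M2 and M3, 30.8, 85.6 and 16.3 CPM in M4, M5 and M6, and 14.6, 9.30 and 2.85 CPM in NI1, NI2 and NI3. M5 stood high above the other tumors, and the groups did not overlap. Its log2 fold change over all 9 libraries, 2.22, was the highest of the 49 (adjusted p = 0.148 by edgeR), and it was 2.78 (adjusted p = 0.0407) without the library labelled NI1. Espl1, the separase that cuts cohesin, was 10.6 to 42.9 CPM in tumors and 2.60 to 9.79 CPM in islets, with a log2 fold change of 2.59 (adjusted p = 0.0250 by edgeR), and Cdc20, the activator of the APC/C, was called at 2.17.

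Pttg1, the securin that holds separase inactive, did not follow its partner. It was 4.94, 7.67 and 13.9 CPM in M1, M2 and M3, 10.7, 17.9 and 8.57 CPM in M4, M5 and M6, and 8.98, 13.8 and 13.6 CPM in NI1, NI2 and NI3. The groups overlapped, and 4 of the 6 tumors were below NI2 and NI3. Over all 9 libraries the log2 fold change of Pttg1 was −0.19 (SE 0.38, adjusted p = 0.813 by edgeR) and −0.37 (SE 0.44, adjusted p = 0.628) without the library labelled NI1. Its promoter window was 1 of the 7 that held neither CHR nor CCAAT letters. Of the others, Ncaph, Nusap1, Birc5, Nuf2 and Mad2l1 were called higher without the library labelled NI1, and Mybl2 was not.

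**Figure D3:**
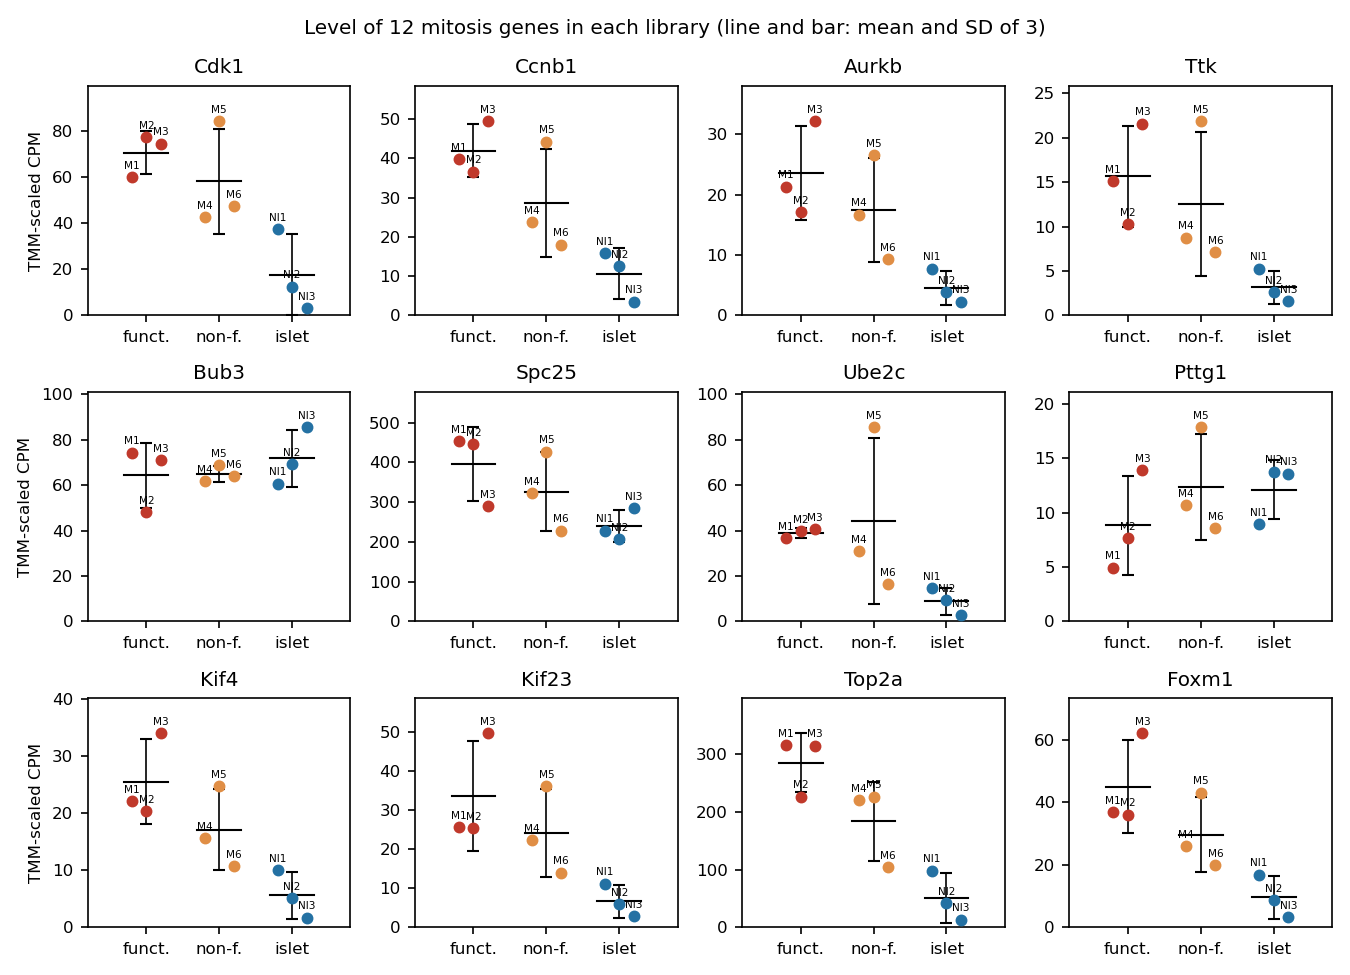
TMM-scaled CPM (vertical axes, from 0) of 12 mitosis genes in each library, with functional tumors in red, non-functional tumors in orange and islets in blue; lines and bars are the mean and SD of 3 libraries. For Cdk1, Aurkb, Ttk, Kif4, Kif23, Top2a and Foxm1 every tumor lies above every islet library, with M6 or M4 lowest, whereas Bub3, Spc25 and Pttg1 overlap between the groups.

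Of the spindle motors and assembly factors 5 of 6 were called without the library labelled NI1 and 0 over all 9, with log2 fold changes there of 1.43 (Kif2c) to 2.05 (Kif11) and adjusted p of 0.152 to 0.201 by edgeR. Hmmr, which helps to organise the spindle poles, was 60.8, 34.4 and 51.1 CPM in M1, M2 and M3, 41.5, 46.7 and 20.8 CPM in M4, M5 and M6, and 17.7, 11.2 and 2.30 CPM in the islets. Its groups did not overlap, and the log2 fold change was 2.65 (adjusted p = 0.0360 by edgeR) without the library labelled NI1. Kif4, a chromokinesin, was 10.8 to 34.1 CPM in tumors and 1.71 to 9.99 CPM in islets, with a log2 fold change of 2.64 (adjusted p = 0.0251 by edgeR). Kif11, the Eg5 motor that pushes spindle poles apart, was highest in M3 at 105 CPM and 24.5 to 58.3 CPM in the other tumors. In the islets it was 24.2, 10.3 and 3.42 CPM, so that M6 and the library labelled NI1 were again nearly equal, and its log2 fold change was 2.94 (adjusted p = 0.0297 by edgeR). Tpx2 and Nusap1 were called at 2.35 and 2.69. Kif2c, a microtubule depolymerase, had a log2 fold change of 1.96 that did not pass (adjusted p = 0.0840 by edgeR), with 6.26 to 17.8 CPM in tumors and 6.55, 4.51 and 1.16 CPM in the islets.

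In the central spindle and cytokinesis group 4 of 5 genes were called without the library labelled NI1. With all 9 the count was 0, at log2 fold changes of 1.29 (Kif20a) to 2.11 (Kif23) and adjusted p of 0.139 to 0.170 by edgeR. Kif23, a subunit of centralspindlin, was 25.7, 25.5 and 49.8 CPM in M1, M2 and M3, 22.3, 36.2 and 14.0 CPM in M4, M5 and M6, and 11.2, 5.98 and 2.90 CPM in the islets. No tumor overlapped the islets, and its log2 fold change was 2.70 (SE 0.54, adjusted p = 0.0198 by edgeR) without the library labelled NI1. Anln, anillin, which scaffolds the contractile ring, was 20.3 to 62.8 CPM in tumors and 2.16 to 16.7 CPM in islets, with a log2 fold change of 2.76 (adjusted p = 0.0315 by edgeR). Prc1, which bundles the microtubules between separating chromosomes, and Ect2, which activates RhoA at the equator, were called at 2.41 and 2.42. Kif20a, a kinesin of the central spindle, had a log2 fold change of 1.58 that did not pass (adjusted p = 0.0530 by edgeR), and it overlaps Cdc23, a gene of the other strand with a mean count of 3258.

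Chromosome structure genes had the highest group median without the library labelled NI1, 2.71, and 5 of 6 were called. All 9 libraries gave 0 of 6, at log2 fold changes of 1.39 (Smc4) to 2.19 (Top2a) and adjusted p of 0.128 to 0.180 by edgeR. Top2a (ENSMUSG00000020914, chr11:98992943-99024189, minus strand) was 315, 226 and 314 CPM in M1, M2 and M3, 220, 226 and 104 CPM in M4, M5 and M6, and 97.9, 42.1 and 13.6 CPM in NI1, NI2 and NI3. M6 at 104 CPM was the lowest tumor and stood just above the library labelled NI1. The log2 fold change of Top2a was 2.19 (SE 0.57, adjusted p = 0.148 by edgeR) over all 9 libraries and 3.07 (SE 0.57, adjusted p = 0.0156) without that library. Smc2, the core ATPase of condensin, was 35.5 CPM in M6 and 70.9 to 119 CPM in the other tumors, and 32.2, 14.7 and 8.97 CPM in the islets, with a log2 fold change of 2.73 (adjusted p = 0.0107 by edgeR). Its partner Smc4 was 140 to 369 CPM in tumors and 139, 59.5 and 40.0 CPM in the islets, with a log2 fold change of 2.07 (adjusted p = 0.0239 by edgeR). Ncapg and Ncaph, subunits of condensin I, were called at 2.69 and 3.02.

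Mki67, the gene of the Ki-67 antigen that coats mitotic chromosomes, was 183, 131 and 333 CPM in M1, M2 and M3, 111, 130 and 83.7 CPM in M4, M5 and M6, and 85.7, 51.8 and 13.9 CPM in NI1, NI2 and NI3. M6 lay below the library labelled NI1, and NI2 was 3.74 times NI3. Over all 9 libraries the log2 fold change of Mki67 was 1.68 (SE 0.58, adjusted p = 0.180 by edgeR) and 2.30 (SE 0.67, adjusted p = 0.0624) without the library labelled NI1. Mki67 thus did not pass the edgeR test in either comparison, while DESeq2 called it in both.

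The 2 transcription factors of the G2 and M genes differed in their calls. Foxm1 was 36.8, 36.1 and 62.2 CPM in M1, M2 and M3, 26.0, 43.1 and 20.0 CPM in M4, M5 and M6, and 16.9, 8.76 and 3.22 CPM in the islets, with no overlap and a log2 fold change of 2.64 (adjusted p = 0.0221 by edgeR) without the library labelled NI1. Mybl2 was 8.04, 8.96 and 16.4 CPM in M1, M2 and M3, 9.75, 13.1 and 3.85 CPM in M4, M5 and M6, and 4.42, 5.73 and 2.11 CPM in the islets. M6 was below NI2, and the log2 fold change of 1.35 did not pass (adjusted p = 0.183 by edgeR). Foxm1 was at 1.95 over all 9 libraries (adjusted p = 0.148 by edgeR) and Mybl2 at 1.29 (adjusted p = 0.195).

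**Figure D4:**
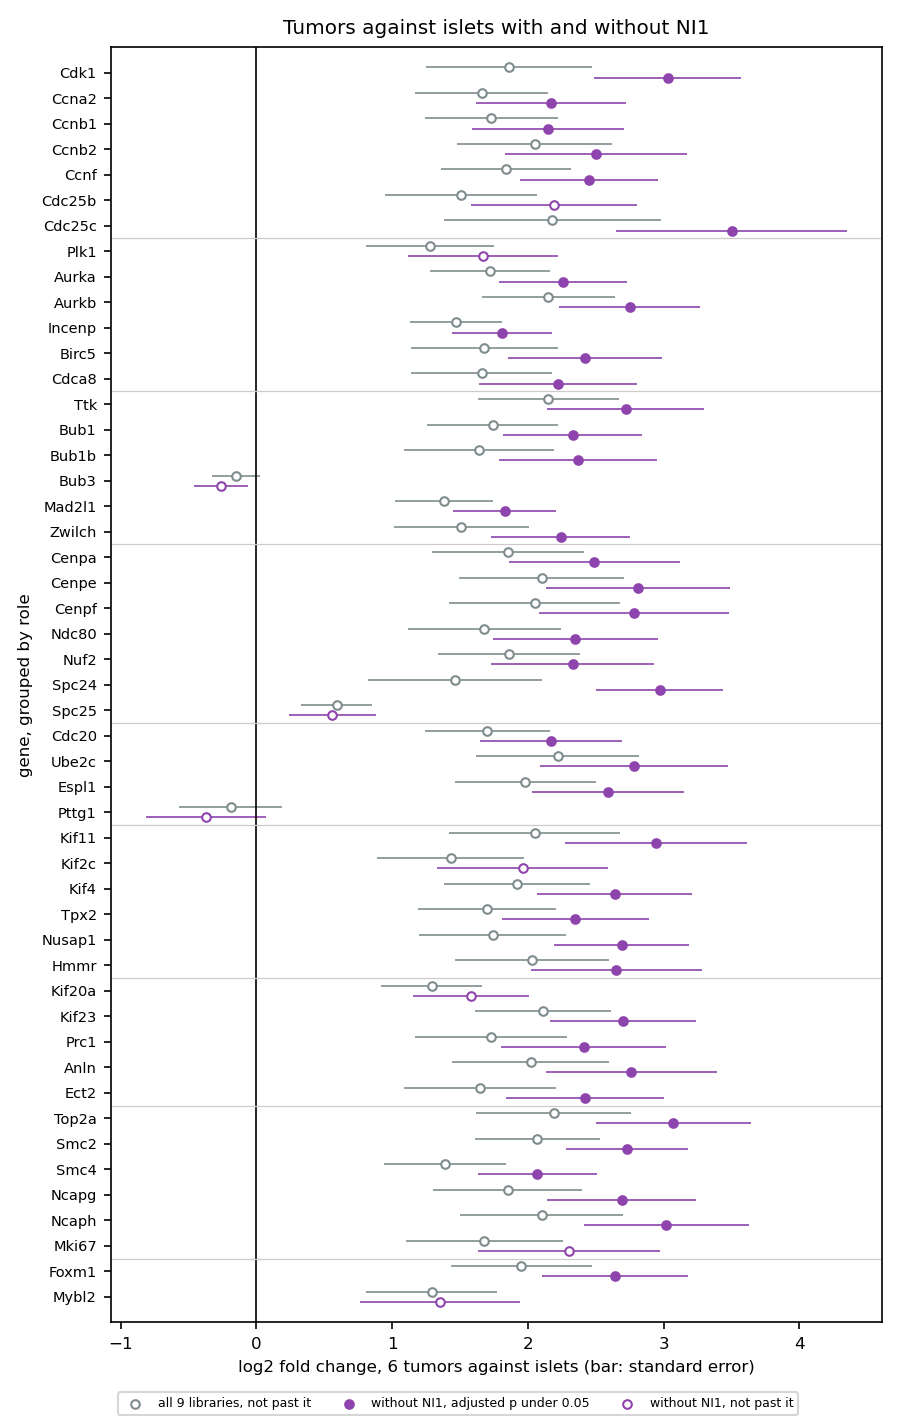
Log2 fold change (horizontal axis) of tumors against islets for the 49 mitosis genes (vertical axis, grouped by role), with the standard error as bars, over all 9 libraries (grey) and without the library labelled NI1 (purple); filled points passed an adjusted p of 0.05. No grey point is filled, 40 purple points are, and Bub3 and Pttg1 are the 2 genes left of 0 in both.

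The tumors differed among themselves more in these genes than in the median tested gene. The highest tumor was a median of 3.08 times the lowest over the 49 genes, against 2.28 times over tested genes above 0 in all tumors. M6 was the lowest tumor for 41 of the 49, where it was the lowest for 14.0% of all tested genes. M3 was the highest for 26 (16.8% of all tested genes) and M5 for 18 (20.3%). The library labelled NI1 was within 1.25-fold of M6 for 45 of the 49 genes, where 83.6% of all tested genes were, and its median ratio to M6 was 0.932. It lay within the range of the 6 tumors for 16 of the 49 genes, where 86.1% of all tested genes did.

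The 2 other islet libraries differed as well. NI2 was above NI3 for 47 of the 49 genes, where it was above for 48.0% of all tested genes, by a median of 2.72-fold and by 5.61-fold for Cdc25c. The exceptions were Bub3 and Spc25. For 46 of the 49 the library labelled NI1 was in turn above NI2.

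The S phase genes did not order the libraries in the same way. As the median log2 ratio to NI2 and NI3, the mitosis genes stood at 2.76, 2.51 and 3.04 in M1, M2 and M3, at 2.27, 3.02 and 1.67 in M4, M5 and M6, and at 1.51 in the library labelled NI1. The 22 S phase genes stood at 2.35, 2.67 and 2.76 in M1, M2 and M3, at 2.04, 2.35 and 2.33 in M4, M5 and M6, and at 2.02 in the library labelled NI1. M6 was thus the lowest tumor by the mitosis genes but not by the S phase genes. NI2 stood at 0.72 and NI3 at −0.72 by the mitosis genes, and at 0.14 and −0.14 by the S phase genes. The difference between the 2 lists was not tested.

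**Figure D5:**
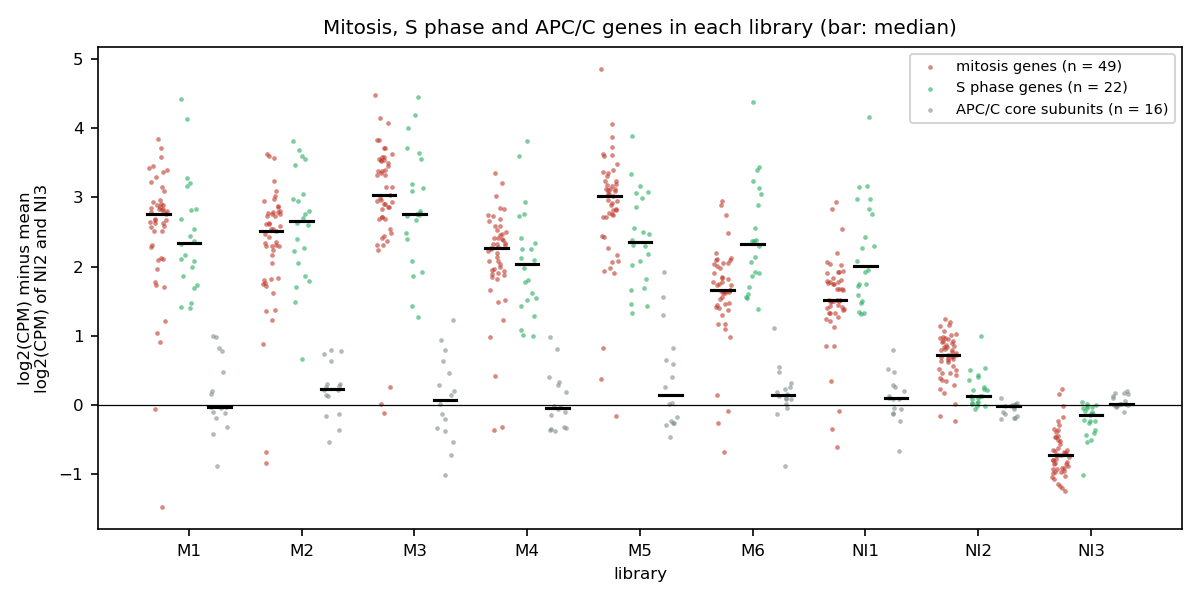
Log2(CPM) minus the mean log2(CPM) of NI2 and NI3 (vertical axis) in each library (horizontal axis). The 49 mitosis genes are red, 22 S phase genes green and 16 core subunits and cofactors of the APC/C grey, with black bars at the medians. The red median lies below the green one in M6 (1.67 against 2.33) and the library labelled NI1 (1.51 against 2.02). It also does in M2 (2.51 against 2.67) and NI3 (−0.72 against −0.14). The grey medians stay between −0.04 and 0.24 in every library.

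No difference between functional and non-functional tumors passed edgeR's test for any of the 49 genes, with 0 called in either direction, 0 at an unadjusted p under 0.05 and 0 called by DESeq2 or limma-trend. The background was 0 called in either direction among all 15532 tested genes, and at an unadjusted p under 0.05 it was 4.71% higher and 5.58% lower. The median log2 difference, functional minus non-functional, was 0.38 against 0.01 over all tested genes, and 41 of the 49 values were above 0. That median was 0.12 without M6 and 0.16 without M3, 0.57 without M2 and 0.77 without M5. With library totals only it was 0.72, and the median of all tested genes 0.32. Standard errors ran from 0.21 to 0.87, so differences of the size of most of these values were not detectable with 3 tumors a group.

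The widest differences were 1.00 for Mki67 (SE 0.57), 0.93 for Kif11 (0.62) and 0.89 for Anln (0.58), and at the other end −0.49 for Pttg1 (0.44), −0.35 for Spc24 (0.72) and −0.30 for Smc4 (0.50). All 3 functional tumors were above all 3 non-functional tumors for Anln, Top2a and Mki67 only, 3 of the 49, where 8.77% of all tested genes were, and the reverse held for 0, where 6.24% were. For Mki67 the groups were 216 ± 105 and 108 ± 23.1 CPM (SD, n = 3 each), and for Top2a 285 ± 51.1 and 183 ± 68.4 CPM. M6 was the lowest of the 6 tumors for both genes. The values of Smc4 and Spc24 depended on M5, without which they were 0.18 and 0.06.

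Set against islets separately, the 2 tumor groups share the islet libraries, so their values are given side by side. Over all 9 libraries edgeR called 0 of the 49 genes in functional tumors (background 0.0451% higher and 0.431% lower) and 0 in non-functional tumors (background 0 in either direction). At an unadjusted p under 0.05, 46 and 37 were higher, where 11.3% and 8.27% of all tested genes were, and the median log2 fold changes were 1.98 and 1.55. Without the library labelled NI1, 32 of the 49 were called higher in functional tumors, where 5.15% of all tested genes were, and 9 in non-functional tumors, where 2.90% were. The medians were then 2.61 and 2.25. The 9 called in non-functional tumors were Cdk1, Aurkb, Spc24, Nusap1, Kif23, Top2a, Smc2, Smc4 and Ncaph, and all 9 were also among the 32. When M6 was left out as well, the counts were 35 and 24, and the share over all tested genes is not given for that fit. The count in non-functional tumors thus changed with M6. Top2a had a log2 fold change of 3.36 (SE 0.57) in functional and 2.72 (SE 0.55) in non-functional tumors, and Cdk1 of 3.16 (0.59) and 2.88 (0.58).

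Other genes of the same machinery were read as lists, without a test of the list. Without the library labelled NI1, 21 of 30 other kinetochore and centromere genes were called higher (median log2 fold change 2.19), as were 19 of 27 other mitotic kinesins, spindle and centrosome genes (median 2.50), 4 of 4 other condensin subunits (median 1.99) and 21 of 22 S phase genes (median 2.33). Among all tested genes 5.34% were called higher and the median was 0.05. None of the listed genes was called lower. Over all 9 libraries edgeR called 0 genes in each of these lists, with 22 of 30, 23 of 27, 4 of 4 and 16 of 22 higher at an unadjusted p under 0.05, where 10.7% of all tested genes were.

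Of the 16 core subunits and cofactors of the APC/C, edgeR called 0 without the library labelled NI1, with 3 of 16 higher at an unadjusted p under 0.05 (15.0% of all tested genes) and a median log2 fold change of 0.17. Of 16 genes of cohesin and its regulators 4 were called higher without the library labelled NI1 (5.34% of all tested genes), with a median of 0.47 against 0.05 over all tested genes. With all 9, 0 were called and 6 were higher at an unadjusted p under 0.05, where 10.7% of all tested genes were. These 4, named after their values were seen, were Esco2, Cdca5, Sgo1 and Sgo2a, which establish or protect cohesion, at 2.13, 2.81, 2.59 and 2.72. The ring subunits Smc1a, Smc3 and Rad21 had log2 fold changes of 0.55, 0.62 and 0.47 that did not pass. Of 11 genes of MuvB and DREAM, the complex that represses these promoters in resting cells, 3 were called higher and 1 lower without the library labelled NI1 (5.34% and 3.17% of all tested genes), with a median of 0.35. With all 9 libraries 0 passed the adjusted threshold. An unadjusted p under 0.05 held for 3 that were higher and 1 that was lower (10.7% and 9.14% of all tested genes). Also named after their values were seen, those called without the library labelled NI1 were Lin9 (3.09), Rbl1 (2.01) and Tfdp1 (0.90), and E2f5 (−1.01).

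The median log2 fold change without the library labelled NI1 was 2.47 for the 30 genes with CHR letters in the window and 2.33 for the 9 without. Bub3 and Spc25, which had letters in their windows, were at −0.26 and 0.56.

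Markers of some other cell types also differed between tumors and islets. The ductal, fibroblast and endothelial markers overlapped in summed level, at 308 to 773, 13.5 to 185 and 358 to 1174 CPM in tumors. In the islets these sums were 393 to 517, 33.4 to 80.6 and 1081 to 1182 CPM. The summed level of 6 macrophage markers was 231 to 653 CPM in the tumors and 253, 150 and 108 CPM in NI1, NI2 and NI3. Without the library labelled NI1, 3 of the 6 were called higher, where 5.34% of all tested genes were. Over all 9 libraries 0 were called, and 6 were higher at an unadjusted p under 0.05 (10.7% of all tested genes). The 8 lymphoid markers summed to 21.2 to 116 CPM in tumors and 166 to 208 CPM in islets. The 8 acinar markers summed to 0.766 to 197 CPM in tumors and to 294, 354 and 5305 CPM in NI1, NI2 and NI3. Cpa1, Cpb1, Ctrb1, Prss2 and Amy2b were at 0 in at least 1 library. Without the library labelled NI1, 3 of the 8 lymphoid and 1 of the 7 tested acinar markers were called lower, where 3.17% of all tested genes were. Over all 9 libraries 2 lymphoid and 0 acinar markers were called lower (0.258% of all tested genes). The 10 beta cell markers were present in all libraries, at a sum of 18883 to 117230 CPM in tumors and 122391 to 365735 CPM in islets. Their median level overlapped, at 381 to 632 CPM in tumors and 561, 496 and 646 CPM in NI1, NI2 and NI3. Without the library labelled NI1, 1 of the 10 was called lower (3.17% of all tested genes), and over all 9 libraries 0 were. The 7 alpha, delta and PP cell markers summed to 428 to 3277 CPM in tumors and to 1530, 3032 and 19003 CPM in NI1, NI2 and NI3. Of the 6 tested, 1 was called higher and 1 lower without the library labelled NI1 (5.34% and 3.17% of all tested genes), and 0 over all 9 libraries. NI3 had the highest sum of all 9 libraries for the acinar markers and for these. The part of these cells in the levels of the mitosis genes was not tested.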

How the data were processed

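RNA from 6 tumors and 3 islet samples was sequenced in 1 library each, and the study describes all samples as biological replicates. Per the submitters' processing notes, the authors trimmed reads with Trimmomatic 0.38 and quantified them with Salmon 1.4.0 on mm10. The authors deposited expected counts per gene as whole numbers, not scaled between libraries. Identifiers were matched to GENCODE M21 (54094 of 54347). The 253 unmatched held 0.0121% of counts.

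Of these, 15532 reached 1 CPM in 3 or more libraries. Their counts were scaled by TMM and tested two-sided in edgeR 4.0.16 (quasi-likelihood, R 4.3.3), with Benjamini-Hochberg adjustment over all of them and a threshold of 0.05. Standard errors are the log2 fold change over the square root of F. The tumor groups were compared with all 3 groups in the model. DESeq2 1.42.0, limma 3.58.1, other scalings and filters, and leaving out each library were alternatives. Tumors against islets, with and without the library labelled NI1, and the comparison of tumor groups were tested on simulated data. The fits of each tumor group against islets and the other scalings were not. The simulation gave every gene the same spread and held no islet library at tumor level. It therefore cannot show how the tests act where these data differ from that. The members and lists were chosen with earlier results of these data known. The genes named with full values were, per role, those with the smallest p and the log2 fold change nearest 0 over all 9 libraries, 7 fixed genes, and the 3 widest differences each way between tumor groups.

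Strandedness of the counting is not given in the sources used here, and 13 members overlap a protein-coding gene of the other strand, 10 of them one with a mean count above 100 (among them Ccna2, Cdc20, Kif4, Kif20a and Ncapg). Pseudogenes of Ccnb1 and Kif4 had 0 counts, and that of Ccnb2 9 to 32. Promoter windows are from RefSeq. Detection limits cover counting error only, since the reads carry no molecular identifiers.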

Additional observations from a re-analysis of the deposited data

Results flagged for a closer look

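In 2 of the 49 genes 1 tumor stood apart from the other 5 by Dixon's criterion for 6 samples, where the gap to the nearest tumor must exceed the 95% critical share of the whole range. Spc24 was 68.8 CPM in M5 with the next tumor at 40.2 CPM (0.745 of the range), and Ube2c was 85.6 CPM in M5 with the next at 40.7 CPM (0.648). Chance alone flags about 1 in 20 groups, or 2.45 of 49. M5 was the highest tumor for 18 of the 49 genes.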

How the results depend on the processing

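With all 9 libraries the 0 members called by edgeR became 42 with DESeq2 and 46 with limma-voom and a weight for each library. They became 42 with both the library labelled NI1 and M6 left out (added after the data were seen), and leaving out 1 library gave 0 to 40. The share of all tested genes called higher was 4.92% with DESeq2, and 5.34% for the 40 without the library labelled NI1. It is not given for the other settings, so those counts have no background beside them. Without the library labelled NI1, the 40 called ranged from 0 to 42 when 1 more library was left out. Functional tumors against islets went from 0 to 32 without the library labelled NI1 and to 35 without M6 too, and non-functional tumors from 0 to 9 and 24. The cause was not tested. Functional against non-functional tumors gave 0 under every alternative run. The sign turned for Bub3 (0.09, and 0.12 without the library labelled NI1), Pttg1 (0.06) and Smc4 between tumor groups (0.02) with library totals only, and without M5 for Spc24 and Smc4 between tumor groups, whose ranges over the left-out libraries were −0.57 to 0.06 and −0.58 to 0.18. Medians of the members ranged over the left-out libraries from 1.33 to 2.42 with all 9, from 1.86 to 3.35 without the library labelled NI1 and from 0.12 to 0.77 between tumor groups (0.72 with library totals only). With the replicate number as a replicate block, 0 members were called and the median was 2.19. Only M1 to M3 share a number with an islet library, so M4 to M6 added nothing to the tumor effect in that fit. Same-numbered tumors and islets did not deviate together (r −0.05, 0.03 and −0.16). With so few pairs, the library labelled NI1 among them, these values cannot show whether the numbers pair the samples. All members were above the detection limit in every library, with a lowest count of 10 (Cdc25c in NI3). The fits without NI1 and 1 more islet library take the spread from the tumors alone.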
